A study of Mus musculus with 6 samples.

Results

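The matrix metalloproteinases (Mmp), the disintegrin metalloproteinases with thrombospondin motifs (Adamts) and the tissue inhibitors of metalloproteinases (Timp) were followed in whole mouse kidneys at postnatal day 13. Every gene symbol that opened with Mmp, Timp or Adamts and a digit was taken, which gave 46 of the 24422 genes counted: 23 Mmp, 19 Adamts and 4 Timp genes. Fold changes were computed for the 39 genes with 60 or more reads summed over the 6 libraries (16 Mmp, all 19 Adamts and all 4 Timp genes). At the edge of that limit, Mmp24 (64 reads) and Mmp7 (65 reads) were just inside and Mmp3 (24 reads) was just outside. There were 3 Control kidneys of wild type genotype and 3 TfR1 knockout kidneys (TfR1KO;Six2Cre, genotype Tfr1f/f;SixCre). All 6 were C57BL/6, were collected on postnatal day 13 and came from the same iron-sufficient diet with 220 ppm iron. The knockout removes floxed exons of the transferrin receptor gene Tfrc (TfR1), the main port of entry for transferrin-bound iron, in cells that express Six2Cre. That driver is active in the progenitors of the nephron tubules and not in stroma, vessels or the collecting duct lineage, and by this age some tubule cells that kept TfR1 had repopulated the knockout nephrons, which were cystic. A knockout library is therefore a mixture of deleted, escaped and never-targeted cells.

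Mmp and Adamts enzymes are zinc proteases that cut the extracellular matrix. They are made as inactive precursors, are activated by removal of a propeptide, and are held in check by Timp proteins that bind the active site. Mmp enzymes are grouped by what they cut (collagenases, gelatinases, stromelysins) or by their anchoring in the membrane. Adamts enzymes include the proteoglycanases, which cut versican and aggrecan, the procollagen N-proteinases, which trim collagen precursors, and Adamts13, which cuts von Willebrand factor. In the kidney, the balance of these enzymes and inhibitors shapes the tubular basement membrane and the interstitial matrix. Transcript levels were measured here, and neither the activation of the proteases nor their inhibition was.

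The regions just upstream of the transcription start are shown for the genes with the smallest adjusted p-values for which a sequence was at hand, so that they can be read beside the values below. RefSeq start sites (promoter table of GRCm38.p6) were available for 32 of the 46 genes. Each window holds the 250 bases before the start, was matched letter for letter to a single place in mm9 (NCBIM37), and is written along the gene's own strand. Capitals mark matches on either strand to 4 motifs: the AP-1 element TGANTCA, the GC box GGGCGG, the TATA box TATAAA and the HIF response core, ACGTG or GCGTG.
Adamts1, chr16:85803359-85803608, minus strand: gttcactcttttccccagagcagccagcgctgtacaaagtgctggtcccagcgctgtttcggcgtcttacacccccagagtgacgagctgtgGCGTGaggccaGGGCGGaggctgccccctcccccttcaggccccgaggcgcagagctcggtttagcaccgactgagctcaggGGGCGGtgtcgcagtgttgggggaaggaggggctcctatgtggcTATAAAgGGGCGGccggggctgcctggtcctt
Adamts18, chr8:116372740-116372989, minus strand: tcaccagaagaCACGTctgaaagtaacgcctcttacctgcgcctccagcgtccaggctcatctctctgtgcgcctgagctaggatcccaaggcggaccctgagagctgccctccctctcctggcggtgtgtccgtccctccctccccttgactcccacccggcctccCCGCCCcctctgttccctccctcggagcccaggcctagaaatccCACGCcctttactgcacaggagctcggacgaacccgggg
Adamts17, chr7:73984371-73984620, plus strand: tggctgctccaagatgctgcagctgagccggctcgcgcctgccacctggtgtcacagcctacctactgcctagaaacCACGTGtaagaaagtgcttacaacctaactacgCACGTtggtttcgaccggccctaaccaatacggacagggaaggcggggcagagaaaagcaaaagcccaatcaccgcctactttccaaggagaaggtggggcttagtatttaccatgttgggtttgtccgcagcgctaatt
Mmp7, chr9:7691840-7692089, plus strand: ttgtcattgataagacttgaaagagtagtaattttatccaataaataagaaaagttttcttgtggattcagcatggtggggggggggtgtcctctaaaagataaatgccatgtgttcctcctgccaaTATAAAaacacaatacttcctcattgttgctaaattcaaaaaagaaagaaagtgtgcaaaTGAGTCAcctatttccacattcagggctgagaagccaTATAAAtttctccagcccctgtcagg
The Adamts1 window was 65.6% G or C and held 3 GC boxes, 1 HIF core and 1 TATA box, the last at 32 to 27 bases before the start. The Mmp7 window was 38.0% G or C and held 1 AP-1 element at 63 to 57 bases before the start and 2 TATA boxes. The motifs were read as letters only, and a match is not evidence of a bound factor.

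The AP-1 element, which is bound by Fos and Jun proteins, is shown further because all the genes that held it lie together. It was present in the windows of 7 of the 32 genes with a sequence, against 6.75% of 32851 windows of the same length in the table. All 7 belong to a cluster of 10 Mmp genes that spans 427072 bases of chromosome 9 (7272514 to 7699585, mm9). The 23 bases around each element are given below with the element in capitals, a set chosen after the values had been seen.
Mmp13, chr9:7272471-7272493, plus strand: caaagtggTGACTCAtcactatc
Mmp1b, chr9:7388105-7388127, minus strand: acaaagccTGAGTCAtatagcct
Mmp3, chr9:7445768-7445790, plus strand: agcaattaTGAGTCAgttttcgg
Mmp1a, chr9:7464060-7464082, plus strand: gtcaaccaTGAGTCAcatagcct
Mmp10, chr9:7502271-7502293, plus strand: cacccatgTGAGTCAtgcttagt
Mmp20, chr9:7628128-7628150, plus strand: ttgagacaTGAATCAtcacttac
Mmp7, chr9:7692019-7692041, plus strand: tgtgcaaaTGAGTCAcctatttc
Of these 7 genes, Mmp1a, Mmp1b and Mmp10 had no read in any library, Mmp20 had 2 and Mmp3 had 24. The other members of the cluster are Mmp8, Mmp12 and Mmp27 (the last with 16 reads), whose windows held no match to this element. The GC box was found in 16 of the 32 windows (32.7% of all windows in the table), the TATA box in 9 (12.4%) and the HIF core in 13 (38.6%).

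Total gene counts ran from 16591156 to 22898008 per library, so counting error was small for abundant genes and large for the scarce ones. The libraries of a group were not alike. Control replicate 3 stood apart from the other Control kidneys: its Pearson r with Control replicates 1 and 2 was 0.959 and 0.965, against 0.983 between those (log2 scale, across genes, which are not independent replicates). It held more stromal transcript (10 markers, summed level 126133 normalized reads, against 62737 and 60355) and less proximal tubule transcript (10 markers, 102532, against 265858 and 287638). Of the 39 genes, 31 (79.5%) had their highest Control value in this library, compared with 43.0% of all genes with 60 or more reads. Results are therefore also given without it, and its part in them was not tested. Tfrc itself had 5534, 6485 and 3667 normalized reads in the Control libraries and 6976, 4045 and 5898 in the knockout libraries, with overlapping groups. Its count covers the whole gene, including exons outside the deleted part, and so does not check the deletion. Knockout replicates 1 and 2 were the least alike pair within a group (r 0.946), and knockout replicate 2 had the lowest knockout value for 24 of the 39 genes (61.5%, against 40.2% of all genes). Without it, 7 genes were called higher and 6 lower, as set out with the other omissions below. Tubule markers were present in every library but shifted between the groups. Thick ascending limb markers fell in 4 of 5 cases (summed level 52504 to 105452 normalized reads in Control, 22203 to 34348 in knockout kidneys) and collecting duct markers rose in 5 of 8 cases and fell in 1 (18177 to 26284 and 46966 to 76565). Among proximal tubule markers 4 of 10 fell and 1 rose. The marker counts are at a DESeq2 adjusted p under 0.05. With the edgeR quasi-likelihood test, 3 thick ascending limb markers and 2 proximal tubule markers were lower. It called 1 collecting duct marker and 1 proximal tubule marker higher. Without Control replicate 3, DESeq2 called 4 thick ascending limb and 7 proximal tubule markers lower. In that fit 4 collecting duct markers were higher and 1 lower, and 1 proximal tubule marker was higher. These shifts lie between the same groups as the changes below, those of Adamts1, Timp3 and Adamts15 included, and their part in them was not tested. None of the counted genes of 8 cell type marker lists was at 0 in all libraries. In whole-kidney RNA, fewer cells of a type and less RNA per cell cannot be told apart.

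At a DESeq2 adjusted p under 0.05, 13 of the 39 genes (33.3%) differed between TfR1 knockout and Control kidneys, against 15.8% of all genes with 60 or more reads. Transcripts of 6 genes were higher in the knockout (Adamts1, Adamts4, Mmp7, Mmp8, Mmp12 and Timp3) and those of 7 were lower (Adamts5, Adamts15, Adamts17, Adamts18, Mmp9, Mmp11 and Mmp16), where 8.2% and 7.63% of all genes were called in these directions. With a change of at least 2-fold, 5 were higher and 6 were lower, against 4.61% and 4.69% of all genes. The edgeR quasi-likelihood test called 3 of the 38 genes it tested (7.89%), near its background of 6.01%: Adamts1 and Mmp7 were higher (3.22% of all genes) and Adamts15 was lower (2.8%). With limma-voom 5 were called, Adamts4 and Adamts17 besides these 3, against 6.14% of all genes. At an unadjusted p under 0.05, edgeR passed 15. In 7 of the 39 genes the limit of 60 reads was reached in 1 group only, Mmp7, Mmp8, Mmp12 and Adamts18 among them, so these counts describe the genes that passed and not the families. The groups did not overlap for 7 genes that were higher (17.9%, against 17.3% of all genes) and 8 that were lower (20.5%, against 17.2%), which is near the background. The median log2 fold change over the 39 genes was -0.31, beside 0.0084 over all genes with 60 or more reads, and without Control replicate 3 it was 0.049. The plot of fold changes by role shows calls in both directions among the Adamts proteoglycanases, while the other groups with a call had calls in 1 direction. Most of those other groups held only 1 call, so calls in both directions were not possible there.

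**Figure D1:**
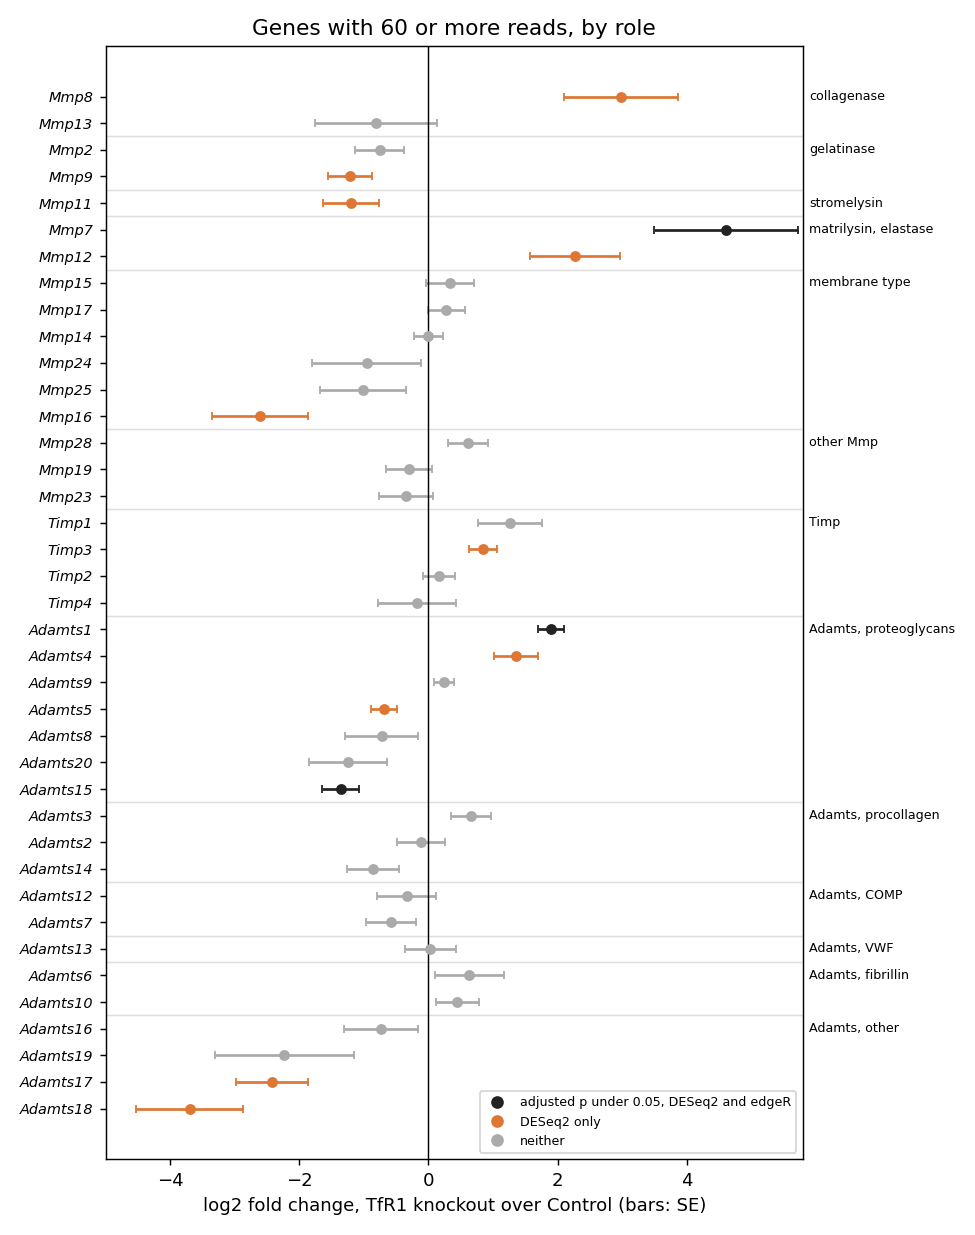
Log2 fold change (TfR1 knockout over Control, 3 kidneys each, DESeq2) of the 39 genes with 60 or more reads, grouped by role, with bars of 1 standard error. Black points passed an adjusted p of 0.05 in DESeq2 and edgeR (3 genes), orange points in DESeq2 only (10 genes), and grey points in neither.

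The Adamts proteoglycanases moved in opposite directions, and Adamts1 gave most of their reads in the knockout. Of 7 members, 2 rose (Adamts1 and Adamts4) and 2 fell (Adamts5 and Adamts15) with DESeq2, which called 8.2% and 7.63% of all genes in these directions. With edgeR only Adamts1 passed as higher and only Adamts15 as lower (3.22% and 2.8% of all genes). Adamts1 cleaves versican and aggrecan and also restrains vessel growth. It was counted at 1929, 1873 and 2554 normalized reads in the Control libraries and at 7515, 8972 and 7269 in the knockout libraries. Every knockout kidney was far above every Control kidney, with means of 2119 ± 378 and 7919 ± 921 (SD, n = 3 each). The increase was 3.74-fold (log2 1.90, SE 0.20, DESeq2 adjusted p 3.20e-19, edgeR adjusted p 0.00384), and it passed in all 14 alternative fits (log2 1.78 to 2.06). Adamts4, another aggrecanase, had 106, 114 and 230 normalized reads in Control and 343, 420 and 389 in knockout kidneys. The groups did not overlap, and the rise was 2.56-fold (log2 1.36, SE 0.34, DESeq2 adjusted p 0.00127). It was lost with edgeR (adjusted p 0.0550) and held in the other 13 alternative fits.

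Adamts15, which also cuts versican and aggrecan, went the other way. It had 1353, 1372 and 1239 normalized reads in the Control kidneys and 748, 398 and 398 in the knockout kidneys. The Control values lay close together and the knockout values all lay below them, with knockout replicate 1 the highest. The level fell by 1.36 on the log2 scale (SE 0.29, DESeq2 adjusted p 7.92e-05, edgeR adjusted p 0.0300), a 2.57-fold higher level in Control, and this passed in all 14 alternative fits. Adamts5, the principal aggrecanase of mouse cartilage, had 1506, 1323 and 1911 normalized reads in Control and 1032, 919 and 999 in knockout kidneys. The groups were separate but close, and the decrease was small (log2 -0.68, SE 0.20, DESeq2 adjusted p 0.00729). It was not called by edgeR (adjusted p 0.0523) or limma-voom (0.0563), nor without Control replicate 1 (0.0648) or without knockout replicate 3 (0.0648). Adamts1 and Adamts5 are neighbours on chromosome 16 on the same strand (85794072 to 85803358 and 85858415 to 85901370, mm9) with 55.1 kb between them, and their transcripts changed in opposite directions. Adamts15 and Adamts8 are also neighbours, 20.1 kb apart on chromosome 9 and on opposite strands. Adamts8 (log2 -0.72, SE 0.56, DESeq2 adjusted p 0.424), Adamts9 (log2 0.24, SE 0.15, adjusted p 0.310) and Adamts20 (log2 -1.25, SE 0.60, adjusted p 0.155) did not pass.

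Summed over the 7 proteoglycanases, normalized reads were 6029, 5734 and 7109 in the Control libraries and 11049, 11966 and 10220 in the knockout libraries. Adamts1 held 32.0%, 32.7% and 35.9% of these reads in the Control kidneys and 68.0%, 75.0% and 71.1% in the knockout kidneys. The shares did not overlap, and their means were 33.5% ± 2.10 and 71.4% ± 3.49 (SD, n = 3 each). Without Adamts1 the sum was lower in the knockout kidneys (3160 ± 325) than in Control (4171 ± 353). These are shares of reads, to which a long transcript gives more than a short one. Versican (Vcan), a shared substrate, fell as well (log2 -1.36, SE 0.36, DESeq2 adjusted p 0.00221, edgeR adjusted p 0.0585).

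**Figure D2:**
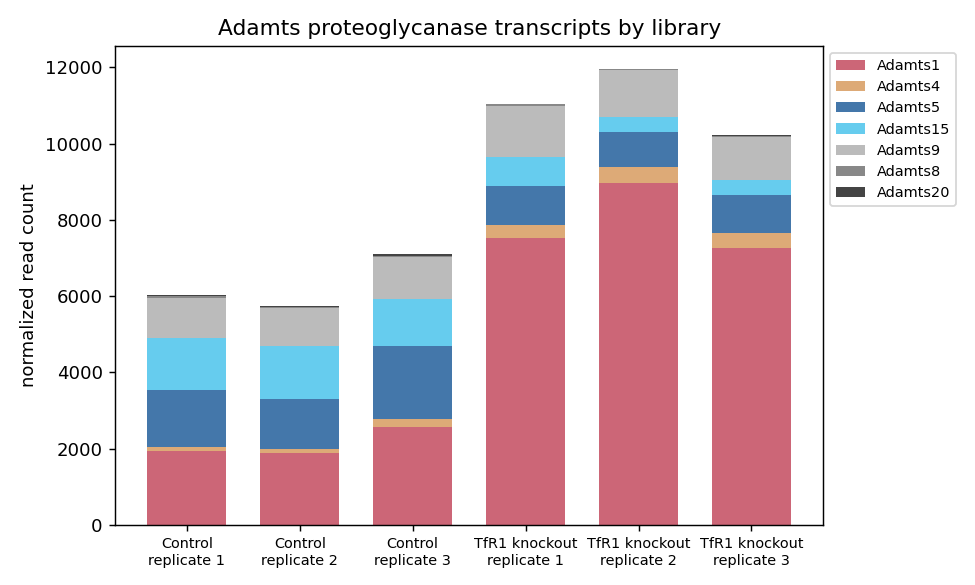
Normalized read counts of the 7 Adamts proteoglycanases, stacked for each of the 6 libraries. Adamts1 (red) makes up 32.0% to 35.9% of the Control bars and 68.0% to 75.0% of the taller knockout bars, and the segments of Adamts5 and Adamts15 are shorter in the knockout.

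Among the remaining Adamts genes, 2 of 12 passed, near the 15.8% of all genes, and both fell. Adamts17, a fibrillin-associated enzyme, is placed under other Adamts genes in the plot by role. It had 586, 670 and 1358 normalized reads in the Control kidneys and 297, 51.2 and 137 in the knockout kidneys. Each knockout value was below each Control value, although both groups were widely spread. The decrease was 5.37-fold (log2 -2.43, SE 0.56, DESeq2 adjusted p 0.000347), and it was -1.96 without Control replicate 3 (adjusted p 0.0109) and -3.20 without knockout replicate 1 (adjusted p 1.18e-08). Adamts18, a secreted enzyme with few known substrates, had 39.6, 46.4 and 295 normalized reads in Control and 8.95, 3.84 and 16.1 in knockout kidneys. The Control mean was set by Control replicate 3, although the other Control kidneys also exceeded all knockout kidneys. Its log2 fold change was -3.70 (SE 0.83, DESeq2 adjusted p 0.000241) with this library and -2.13 (adjusted p 0.0309) without it, and -4.29 without knockout replicate 3 (adjusted p 0.000427). edgeR called neither gene (adjusted p 0.0607 for Adamts17 and 0.0648 for Adamts18), whose adjusted p over the 14 alternatives ran from 1.76e-09 to 0.0607 and from 6.99e-07 to 0.117.

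None of the procollagen N-proteinases passed with all libraries: Adamts2 (log2 -0.11, SE 0.37), Adamts3 (log2 0.66, SE 0.31) and Adamts14 (log2 -0.86, SE 0.40) had DESeq2 adjusted p-values of 0.883, 0.139 and 0.136. Without knockout replicate 1, Adamts3 (log2 0.84, adjusted p 0.0459) and Adamts14 (log2 -1.31, adjusted p 0.00441) passed. Adamts7 and Adamts12, which cut cartilage oligomeric matrix protein, were at log2 -0.58 and -0.34 (SE 0.39 and 0.45). Adamts7 was at -0.053 and Adamts12 at 0.33 without Control replicate 3, which held the highest value of each gene (1623 and 455 normalized reads). Adamts13 was at log2 0.031 (SE 0.39). Adamts6 and Adamts10, which make up the fibrillin group of the plot without Adamts17, were at 0.63 and 0.45 (SE 0.54 and 0.34). Adamts6 was at 0.0056 without knockout replicate 2 and at 1.21 without Control replicate 3. Adamts16 ranged from 72.9 to 623 normalized reads within the knockout group (log2 -0.74, SE 0.57, DESeq2 adjusted p 0.424), and without knockout replicate 1 it was at -1.50 (adjusted p 0.0264). Adamts19 had 62.4 normalized reads in Control replicate 3 and 3.64 to 8.25 in the other 5 libraries, and its log2 fold change was -2.23 with that library and -0.19 without it.

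Mmp7, Mmp8 and Mmp12 were all scarce in Control kidneys and higher in the knockout. Each met the read limit through the knockout group only. A gene as scarce in Control could be reported only with more reads in the knockout, so this joint pattern is not a shared trait. Mmp7 (matrilysin), an epithelial protease, had 0, 1.82 and 1.08 normalized reads in the Control libraries and 20.9, 35.8 and 12.3 in the knockout libraries. These were 3 reads in all Control kidneys and 62 in all knockout kidneys. Scaled for library size, the ratio was 23.6, with an exact 95% counting interval of 7.70 to 117 that leaves out the spread between animals. The groups were separate and the gene passed with DESeq2 (log2 4.61, SE 1.12, adjusted p 0.000818) and edgeR (adjusted p 0.0247), and in all 14 alternative fits (log2 3.96 without Control replicate 1 to 5.58 without Control replicate 2). Of its merged exon length, 11.5% overlaps AV064505 on the opposite strand, whose reads cannot be told apart without a stated strand setting.

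Mmp12, the macrophage elastase, had 4.12, 5.45 and 11.8 normalized reads in the Control kidneys and 52.7, 17.9 and 30.3 in the knockout kidneys. The groups did not overlap, and the gene passed narrowly (log2 2.27, SE 0.70, DESeq2 adjusted p 0.0122, edgeR adjusted p 0.0653). It failed without Control replicate 1 (0.121) or 2 (0.107) and without knockout replicate 1 (0.113) or 3 (0.0692). Macrophage markers rose in the same libraries: 8 of 12 were higher with DESeq2 (8.2% of all genes), 6 with edgeR (3.22%), and none lower. Lyz2 was at log2 1.81 and Itgam at log2 2.44, while Csf1r, Adgre1 and Cx3cr1 did not pass (DESeq2 adjusted p 0.199, 0.146 and 0.395). The summed level of the macrophage markers was 2981 to 5167 normalized reads in Control and 8239 to 10823 in knockout kidneys, with none at 0. Mmp8, the neutrophil collagenase, had 4.12, 11.8 and 3.23 normalized reads in Control and 9.94, 99.8 and 43.5 in knockout kidneys. Knockout replicate 1 lay within the Control range, so the groups overlapped. The gene passed with DESeq2 (log2 2.99, SE 0.88, adjusted p 0.00843) but not with edgeR (adjusted p 0.0924) or limma-voom (0.157). It did not pass without knockout replicate 2 (log2 2.06, adjusted p 0.189) or Control replicate 1 (log2 2.74, adjusted p 0.0715). Neutrophil markers summed to 186, 240 and 537 normalized reads in the Control and to 393, 1108 and 794 in the knockout libraries. The Control values of Mmp8 rest on 5, 13 and 3 reads, too few to rank those kidneys. Of the 7 neutrophil markers with 60 or more reads, S100a8 (log2 1.93) and S100a9 (log2 1.81) rose with DESeq2 and the other 5 did not pass, edgeR called none (adjusted p 0.119 and 0.118 for this pair), and Ly6g and Elane had 15 and 12 reads. The part of these cells in the Mmp8 and Mmp12 values was not tested.

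Mmp13, the main interstitial collagenase of rodents, had 56.7 normalized reads in knockout replicate 1 and 2.56 and 7.57 in the other knockout libraries, against 28.0 to 60.3 in Control. It did not pass with all libraries (log2 -0.82, SE 0.94, DESeq2 adjusted p 0.619), and it passed as lower without knockout replicate 1 (log2 -2.90, adjusted p 0.00311). The chromosome 9 cluster therefore held 3 genes that rose and a collagenase with no call. Summed over its 10 genes, normalized reads were 61.0 ± 23.9 in Control and 137 ± 31.2 in knockout kidneys (SD, n = 3 each). Most of the knockout sum came from Mmp7, Mmp8 and Mmp12 (means 23.0, 51.1 and 33.6), which met the read limit through that group. The mean of Mmp13 was 39.4 in Control and 22.3 in knockout kidneys, so the sum restates those 3 calls and is not a rise shared by the cluster.

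Of the 2 gelatinases, which cut denatured collagen and basement membrane collagen, 1 fell and 1 did not pass. Mmp9 had 77.5, 77.3 and 118 normalized reads in the Control kidneys and 35.8, 42.2 and 39.7 in the knockout kidneys. The knockout values were tight and all below the Control values (2.32-fold, log2 -1.21, SE 0.35, DESeq2 adjusted p 0.00593). The call was lost with edgeR (adjusted p 0.0569), limma-voom (0.0618) and the replicate block in DESeq2 (0.0699). It was also lost without Control replicate 3 (0.0652) and without knockout replicate 3 (0.0541). Mmp2, the gelatinase of stromal cells, had 2859, 3139 and 6750 normalized reads in Control and 1756, 2598 and 3204 in knockout kidneys. The groups overlapped, and no difference was called (log2 -0.75, SE 0.38, DESeq2 adjusted p 0.172, edgeR adjusted p 0.232). Control replicate 3 alone carried the high Control mean, and the log2 fold change was -0.25 without it (adjusted p 0.618).

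Mmp11, a stromelysin that is activated inside the cell by furin, had 563, 567 and 1133 normalized reads in Control and 341, 161 and 479 in knockout kidneys. The groups were separate and the call was marginal (log2 -1.20, SE 0.43, DESeq2 adjusted p 0.0402, edgeR adjusted p 0.137). It was lost in 5 of the 6 fits that left out a library, with adjusted p-values of 0.0582 to 0.223, and it remained only without knockout replicate 3. Mmp16, a membrane-type enzyme, had 56.1, 80.9 and 406 normalized reads in Control and 51.7, 17.9 and 18.9 in knockout kidneys. Knockout replicate 1 nearly reached Control replicate 1. The log2 fold change was -2.61 (SE 0.75, DESeq2 adjusted p 0.00619, edgeR adjusted p 0.111). It was -1.21 without Control replicate 3 (adjusted p 0.199), -2.37 without knockout replicate 3 (0.0558) and -3.29 without knockout replicate 1 (0.00075). Of 10 stromal markers, 3 fell and none rose with DESeq2, edgeR called none, and without Control replicate 3 there was 1 lower and 1 higher. Their summed level was 60355 to 126133 normalized reads in Control, highest in replicate 3, and 36411 to 60325 in knockout kidneys, lowest in replicate 2. The part of stromal cells in these values was not tested.

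Mmp14, the membrane-type protease that activates the Mmp2 precursor together with Timp2, had 1366, 1420 and 2052 normalized reads in Control and 1662, 1412 and 1749 in knockout kidneys. The groups overlapped and their means were 1613 ± 381 and 1608 ± 175 (SD, n = 3 each; log2 -0.0035, SE 0.23, DESeq2 adjusted p 0.995), and the sign turned without Control replicate 3 (log2 0.20). The remaining membrane-type genes Mmp15, Mmp17, Mmp24 and Mmp25 were not called with all libraries (log2 0.33, 0.28, -0.96 and -1.01, SE 0.37, 0.29, 0.84 and 0.66). Mmp15 passed as higher without knockout replicate 2 (log2 0.67, adjusted p 0.0144). Of the Mmp genes outside these classes, Mmp19 and Mmp23 were at log2 -0.31 and -0.35 (SE 0.36 and 0.42). Mmp28, an epithelial enzyme, was at 0.61 (SE 0.31, DESeq2 adjusted p 0.183), with every knockout kidney above every Control kidney, and passed without Control replicate 3 (log2 0.88, adjusted p 0.0323). Exons of Mmp28 overlap a gene on the opposite strand over 12% of their length, and those of Mmp19, Adamts9 and Mmp24 over 23.1%, 14.4% and 13.6%.

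Of the 4 inhibitors, 1 passed and was higher in the knockout. Timp3, which binds to the matrix and inhibits Adamts proteoglycanases as well as Mmp enzymes, had 16878, 16176 and 12307 normalized reads in the Control kidneys and 25702, 32881 and 23250 in the knockout kidneys. All knockout values exceeded all Control values, a 1.8-fold increase (log2 0.85, SE 0.22, DESeq2 adjusted p 0.00158) that passed without Control replicate 3 (log2 0.72, adjusted p 0.00764) and in each other fit that left out a library. edgeR did not call it (adjusted p 0.0708, the highest over the 14 alternatives, of which 12 passed). Of the Timp3 exon length, 21.3% overlaps Syn3, on the opposite strand. Timp1, the inducible inhibitor, had 44.5, 45.4 and 87.2 normalized reads in Control and 235, 80.6 and 109 in knockout kidneys. Knockout replicate 2 lay below Control replicate 3, and the 2.41-fold difference did not pass (log2 1.27, SE 0.49, DESeq2 adjusted p 0.0619, edgeR adjusted p 0.157). It passed without Control replicate 3 (log2 1.65, adjusted p 0.0180) or knockout replicate 2 (log2 1.55, adjusted p 0.0202), and it was 0.69 without knockout replicate 1.

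Timp2 had 3634, 3585 and 5097 normalized reads in Control and 3982, 4047 and 5790 in knockout kidneys, with overlapping groups (log2 0.17, SE 0.24, DESeq2 adjusted p 0.710). Timp4, the scarcest inhibitor, had 17.3, 29.99 and 43.1 normalized reads in Control and 41.8, 12.8 and 24.6 in knockout kidneys (log2 -0.17, SE 0.60, DESeq2 adjusted p 0.888), and its sign turned without Control replicate 3. The 4 inhibitors summed to 19315 ± 1586 normalized reads in Control and 32052 ± 4321 in knockout kidneys (SD, n = 3 each). Timp3 gave 70.2% to 82.0% of these reads in Control and 79.7% to 88.8% in knockout libraries, with overlap. For every Mmp read there were 3.40, 3.06 and 1.47 Timp reads in the Control libraries and 5.31, 7.23 and 4.16 in the knockout libraries. These values did not overlap, and the lowest came from Control replicate 3. This is a ratio of read counts and not of proteins.

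**Figure D3:**
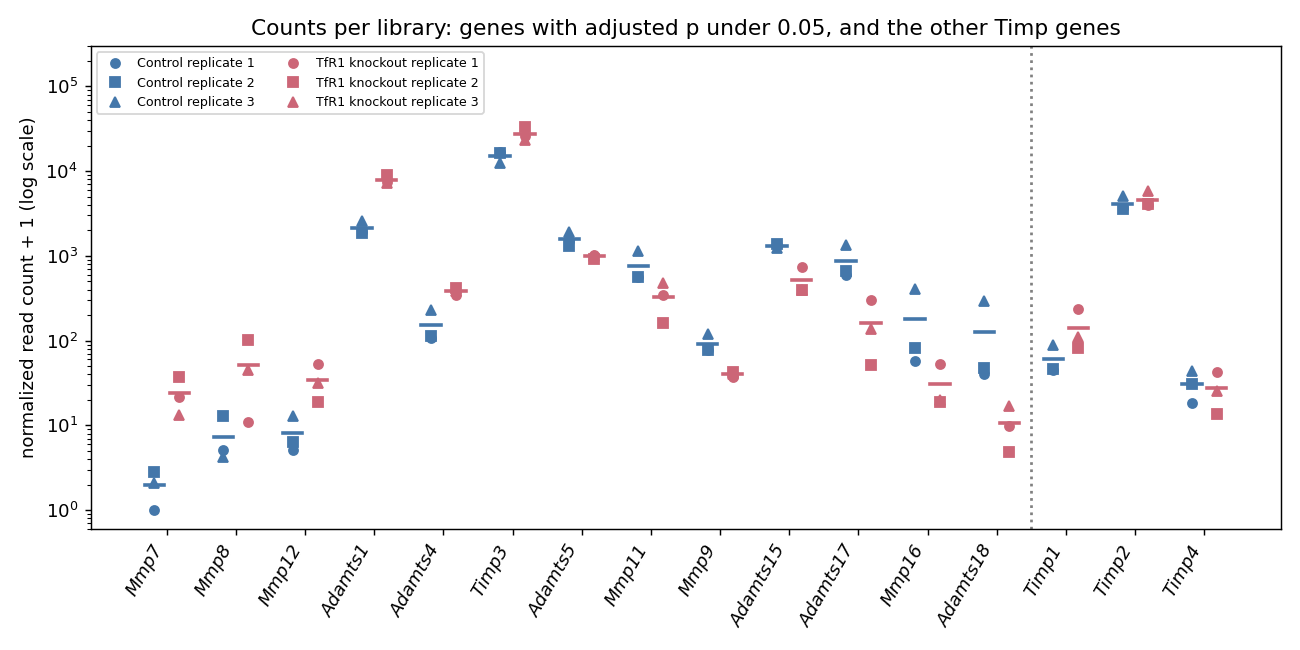
Normalized read count plus 1 (log scale) in each of the 6 libraries for the 13 genes with a DESeq2 adjusted p under 0.05 and, right of the dotted line, the other Timp genes, with short lines at the group means. Control (blue) and knockout (red) points are apart for 12 of the 13 genes and overlap for Mmp8, and the Control replicate 3 triangle stands high for Adamts18 and Mmp16.

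Levels per exonic kilobase allow a rough comparison of genes. All annotated exons of a gene were merged, so the scale depends on the annotation (7237 bases for Mmp12 and 1072 for Mmp7). On this scale Timp3 was the most abundant of the 39 genes in Control kidneys (1857 ± 302 normalized reads per kb). It was followed by Mmp2 (1399 ± 714), Timp2 (1054 ± 220), Mmp14 (621 ± 147) and Adamts1 (400 ± 71.3). The level of Mmp2 in Control was spread widely enough to reach its neighbours on both sides. In the knockout kidneys the order was Timp3 (3349 ± 615), Adamts1 (1494 ± 174), Timp2 (1182 ± 263), Mmp2 (829 ± 239) and Mmp14 (619 ± 67.3), so that Adamts1 moved from the fifth to the second place, where its spread overlaps that of Timp2. The scarce genes that rose stayed low: Mmp7 was at 21.5 ± 11.1, Mmp8 at 20.8 ± 18.5 and Mmp12 at 4.65 ± 2.44 normalized reads per kb in the knockout kidneys.

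**Figure D4:**
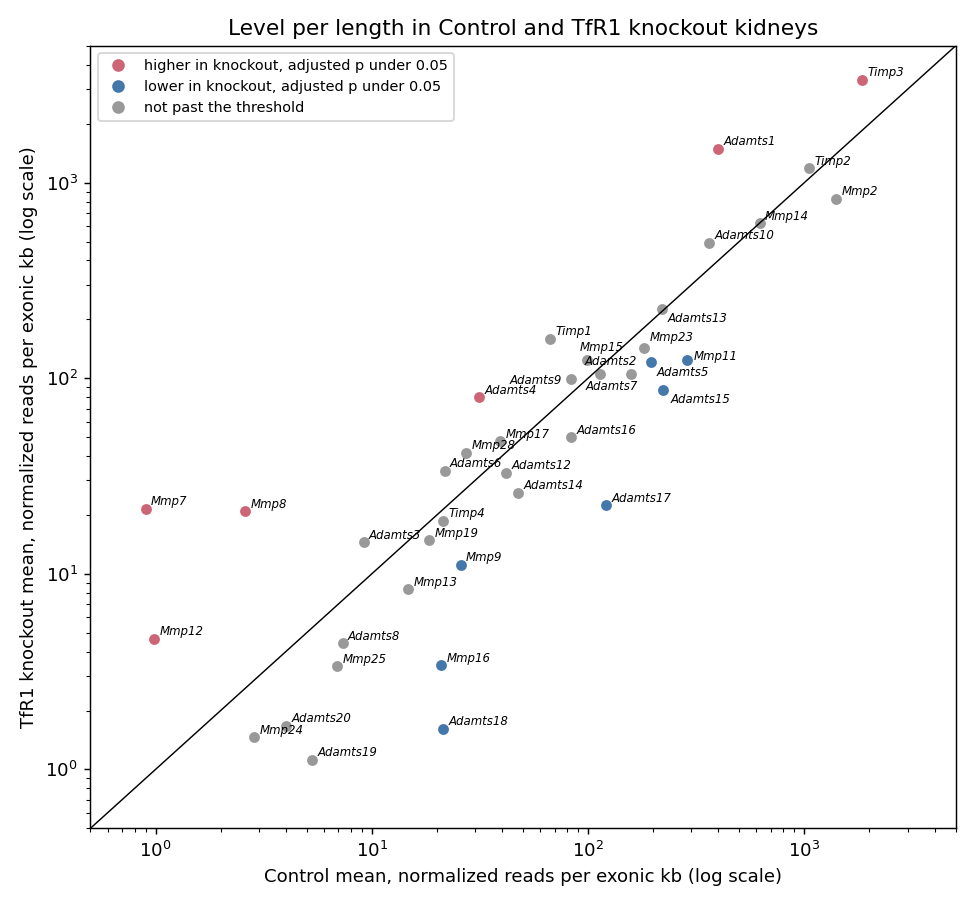
Mean normalized reads per kb of exon in Control (x axis) and TfR1 knockout kidneys (y axis) for the 39 genes, both on log scales, with the line of equality. Timp3 and Adamts1 lie above the line at high levels, Mmp7, Mmp8 and Mmp12 above it at low levels, and Adamts17, Adamts18 and Mmp16 well below it.

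Of the 13 called genes, 7 passed in each of the 6 fits that left out a library (Adamts1, Adamts4, Adamts15, Adamts17, Adamts18, Mmp7 and Timp3), and all 13 kept their sign. Without Control replicate 3, 8 genes were higher and 4 lower, 30.8% of the 39 against 15.1% of all genes. The added calls were Timp1 and Mmp28, and the lost ones were Mmp9, Mmp11 and Mmp16. Of the 7 genes that fell, 6 had a smaller fold change without this kidney and Adamts15 did not, as the plot of fits without each library shows.

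**Figure D5:**
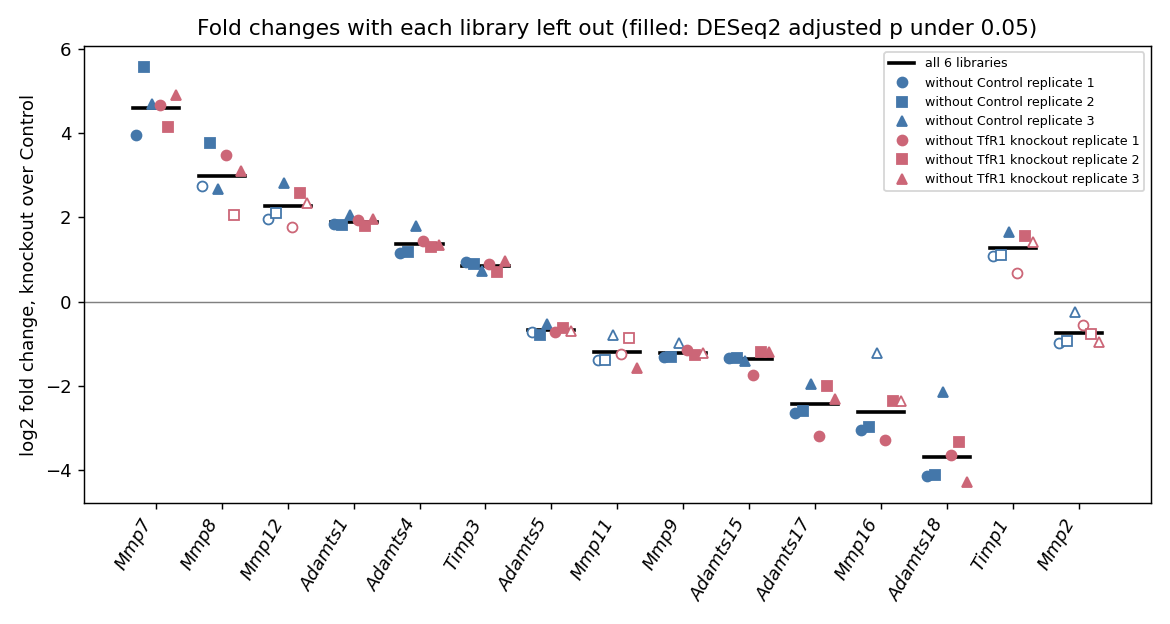
Log2 fold change (TfR1 knockout over Control) of the 13 called genes, Timp1 and Mmp2 with all 6 libraries (black line) and with each library left out in turn (symbols). Filled symbols passed a DESeq2 adjusted p of 0.05: all 6 are filled for 7 genes, 1 for Mmp11 and none for Mmp2, and the fold changes of Adamts18 and Mmp16 are smaller without Control replicate 3 (blue triangles).

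Other genes of matrix turnover, and genes of the AP-1, Ets and Runx families, were read from lists of known role (8 lists of companions). Of their 84 genes with 60 or more reads, 32 passed with DESeq2 (38.1%, against 15.8% of all genes) and 13 of 83 with edgeR (15.7%, against 6.01%). The 13 AP-1, Ets and Runx genes, which are not genes of matrix turnover and are described below, gave 9 of the DESeq2 calls. They also gave 5 of the edgeR calls. Among 12 regulators of these proteases, Tfpi2, a matrix-bound serine protease inhibitor, fell (log2 -1.63, DESeq2 adjusted p 3.30e-07, edgeR adjusted p 0.0182), Spock3 fell (log2 -3.95, and -2.78 without Control replicate 3) and Spock2 rose (log2 1.07), the last pair not by edgeR (0.0551 and 0.0576). Reck, a membrane-anchored inhibitor of Mmp enzymes, did not pass (log2 -0.88, SE 0.33, DESeq2 adjusted p 0.0526). The cathepsins, which are lysosomal proteases, included 3 genes that rose of 11, Ctsd (log2 1.51), Ctss (log2 2.57) and Ctsc (log2 1.22), all also by edgeR, and 1 that fell, Ctsl (log2 -0.77, edgeR adjusted p 0.125). The astacins, relatives in the metalloproteinase clan, included 3 that fell of 4. Mep1b and Mep1a, meprin subunits of the proximal tubule brush border, were at log2 -4.74 and -1.20, and Tll1 was at -1.11. edgeR called Mep1b only (adjusted p 0.0108), and its log2 fold change was -5.74 without knockout replicate 1. Proximal tubule markers summed to 102532 to 287638 normalized reads in Control and to 60655 to 87734 in knockout kidneys.

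Of 6 plasminogen system genes, the urokinase receptor Plaur rose (log2 1.57, DESeq2 adjusted p 9.26e-08, edgeR adjusted p 0.0142) and urokinase itself, Plau, fell (log2 -1.04, DESeq2 adjusted p 0.00346, edgeR adjusted p 0.0662). Of 13 Adam genes, which encode the membrane-bound relatives, Adam23, whose protease site is inactive, rose 15.0-fold (log2 3.90, SE 0.42, edgeR adjusted p 0.00545) and 4 fell, none of them by edgeR, among them Adam19 (log2 -1.13), Adam22 (log2 -0.89) and Adam1a (log2 -1.08). Of the 7 Adamts-like genes, whose proteins lack the protease domain, Adamtsl2 rose 3.18-fold (log2 1.67, SE 0.24, edgeR adjusted p 0.00839) and Papln rose with DESeq2 only (log2 0.74, edgeR adjusted p 0.117). Among 18 matrix substrates, 4 fell and none rose with DESeq2 (Vcan, Lum at log2 -2.05, Thbs2 at -1.65 and Col3a1 at -1.15), edgeR called none, and only Vcan passed without Control replicate 3. Of the companions named here as called, Ctsl, Tll1, Plau, Adam19, Adam22, Adam1a, Papln, Lum, Thbs2 and Col3a1 each lost their call in at least 1 of the 6 fits that left out a library.

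Genes of the AP-1, Ets and Runx families encode regulators known to act on protease promoters. Of 13, DESeq2 called 9 higher (8.2% of all genes) and edgeR called 5 (3.22%), and none was called lower. Jund, Etv5, Ets2 and Junb, among the 9, passed in only 1, 2, 3 and 4 of the 6 fits that left out a library. Fos and Fosb, also among the 13, got no adjusted p from DESeq2, and 5131 of the 5256 Fosb reads were in knockout replicate 1. Atf3 was at log2 3.81 (SE 0.30), Jun at 2.10 (SE 0.43), Etv4 at 2.04 (SE 0.29) and Runx1 at 1.96 (SE 0.39), all with edgeR adjusted p-values of 0.00172 to 0.0413. Knockout replicate 1 held the most of these transcripts: the list summed to 10121 to 11802 normalized reads in the Control libraries and to 45851, 23579 and 17121 in the knockout libraries. Fos, named after its values were seen, had 12788 normalized reads there against 601 and 368 in the other knockout kidneys. Jun was at 1.46 without that library (adjusted p 0.00014). Of the 7 genes whose upstream windows held an AP-1 element, Mmp7 was called higher, Mmp13 was not called, and the remaining 5 had 0 to 24 reads in all 6 libraries together.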

How the data were processed

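RNA from 6 whole mouse kidneys (3 Control, 3 TfR1 knockout) was sequenced from poly-A libraries. Per the labels and methods of the study, the authors trimmed reads (Trimmomatic, after CASAVA 1.8.2), aligned them to mm9 with TopHat2 2.0.11, kept unique alignments and deposited raw read counts per gene from HTSeq, with no normalization. The strand setting is not given in the sources used here. Unique alignment can lower the counts of genes with closely similar copies, which was not measured here. The study states 3 biological replicates per group.

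Groups came from the sample labels. The main test was DESeq2 1.42.0 in R 4.3.3 (Wald test, median-ratio size factors, Benjamini-Hochberg adjustment over 16509 genes with a mean count of at least 3.51, called under 0.05), the tool of the study and its adjusted p, with its 2-fold limit applied as a separate count. Normalized reads are counts divided by size factors. Alternatives were edgeR 4.0.16 (quasi-likelihood, TMM), voom in limma 3.58.1, different size factors and filters, a replicate block, and fits without each library in turn. The code was tested on simulated data. The members and gene lists were chosen with earlier results of these data known. Values in every library are given for the Timp genes, the called genes, and Mmp2, Mmp9, Mmp14 and Adamts1; companions were limited to the 4 smallest adjusted p-values per list. Positions and exon lengths came from GENCODE for mm9. Deviations of same-numbered libraries from their group means correlated at -0.0402, 0.0588 and 0.0892 (log2 of normalized count plus 1), and the fits treat the numbers as unpaired.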

Additional observations from a re-analysis of the deposited data

How the results depend on the processing

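The choice of test moved the counts most. Of the genes with 60 or more reads, 6 were higher and 7 lower with DESeq2, 2 and 1 with edgeR, and 3 and 2 with limma-voom. Past 2-fold they were 5 and 6, then 2 and 1 with edgeR, and 3 and 2 with limma-voom. Companion genes called numbered 32, then 13 with edgeR and 13 with limma-voom. With a minimum of 600 reads, 3 genes were higher, since scarce genes were left out. Over the fits without 1 library, genes higher ran from 4 to 8, genes lower from 4 to 9, genes past 2-fold from 3 to 6 higher and from 3 to 8 lower, and companions from 25 to 33. The lower counts fell to 4 without Control replicate 3 or knockout replicate 3, and past 2-fold to 3 without Control replicate 3. Total-count scaling shifted all genes by -0.10 (log2) and left 6 higher and 6 lower. The replicate number as a block gave 5 higher and 8 lower. Under it, Mmp9 (adjusted p 0.0699) and Mmp12 (0.0573) lost their calls. Calls as lower were gained by Mmp2 (log2 -0.68, adjusted p 0.0225) and Adamts16 (adjusted p 0.0466). Among the 18 named genes, signs turned for Timp2 without knockout replicate 3 (-0.029), for Timp4 without Control replicate 3 (0.16) or knockout replicate 2 (0.15), and for Mmp14 under the block (0.015), without Control replicate 3 (0.20) or knockout replicate 2 (0.086). Over the fits without 1 library, Timp2 ran from -0.029 to 0.35, Timp4 from -0.67 to 0.16 and Mmp14 from -0.12 to 0.20. Of 252 values for 18 named genes under these alternatives, 205 kept their direction and side of the threshold, 38 lost a call, 3 gained one and 6 changed sign. The causes of these changes were not tested. Of the other genes, Adamts2, Adamts12, Adamts13 and Mmp23 changed sign in at least 1 fit without a library, and the median over the 39 genes went from -0.31 to 0.049 without Control replicate 3. Precision is limited by 3 kidneys per group and, for Mmp7, Mmp8, Mmp12, Mmp13 and Timp4, by 65 to 190 reads in all.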
